A study of Mus musculus with 8 samples.

Results

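The genes described here are 6 genes of macrophage itaconate, nitric oxide and arginine metabolism and of alternative activation: Acod1, Nos2, Ass1, Slc7a2, Chil3 and Retnla. They were taken by symbol from the table of 25124 genes, and each matched 1 row. Of the 6 genes, 4 had a mean of at least 0.5 FPKM (fragments per kilobase of transcript, scaled to the reads of the library) over the libraries and were tested. Nos2 fell under that limit and Retnla was listed at 0 in every library, so both are given by their reads only.

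Activated macrophages change how they use the amino acid arginine and the citric acid cycle. Itaconate is a by-product of that cycle that macrophages make through the enzyme ACOD1. It slows the oxidation of succinate and restrains inflammatory output. NOS2 makes nitric oxide and citrulline from arginine, ASS1 recycles citrulline towards arginine and SLC7A2 carries arginine into the cell. The secreted proteins CHIL3 (Ym1) and RETNLA (Fizz1) are mouse markers of the alternative, interleukin-4 driven state, whereas NOS2 and ACOD1 mark the classical, microbially triggered state. In culture the osteoclast forms from the same precursor, when M-CSF is joined by RANKL.

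The study asked which genes extracellular PRDX1, a peroxidase that acts on Toll-like receptor 4 once outside the cell, switches on or off during osteoclast formation. RNA was sequenced from 8 cultures of mouse osteoclast precursors, which the labels call bone marrow-derived macrophages of C57BL/6 mice aged 6 to 8 weeks. The marrow cells had spent 16 h in 5 ng/mL M-CSF and 3 days in 30 ng/mL M-CSF. The groups of 2 cultures were no PRDX1 + no RANKL (called untreated below), PRDX1 + no RANKL (PRDX1 alone), no PRDX1 + RANKL (RANKL alone) and PRDX1 + RANKL (both). All groups shared 30 ng/mL M-CSF and 48 h, RANKL was at 100 ng/mL and PRDX1 at 200 nM. No group carried a deletion or a transgene. The PRDX1 was a tagged protein made in Escherichia coli from which the study's methods say endotoxin was removed. In the study's osteoclast formation assay heat-inactivated PRDX1 did not inhibit, but no library with inactivated protein was analysed here. The study's cell culture methods name ICR mice where the labels name C57BL/6.

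Reads on genes ranged from 24542578 to 41712973 per library, and the 2 libraries of a group always differed beyond counting noise (chi-square per degree of freedom of 4.71 to 9.58). Macrophage markers were present in all libraries. Their summed level over 10 genes was 18031 and 16229 FPKM in untreated cultures and 17106 and 17571 with PRDX1 alone. It was 10346 and 9929 with RANKL alone and 14028 and 13628 with both. Most of that sum was Lyz2 (8326 to 14982 FPKM over the libraries). Mertk ranged down to 4.22 FPKM, Fcgr1 to 7.90 and C1qa to 46.8. That sum was thus higher with PRDX1 under RANKL, as were the genes tested here, and its part in their changes was not tested. The sum over 10 osteoclast markers was 44.8 and 45.4 FPKM in untreated cultures, 92.4 and 88.1 FPKM with PRDX1 alone, 1884 and 1987 FPKM with RANKL alone and 251 and 259 FPKM with both. Fewer cells of a type and less RNA per cell cannot be told apart in these bulk samples. Nothing in the labels says whether the 2 cultures of a group came from separate animals, so the p-values measure the spread between these cultures.

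Promoter sequence was at hand for 4 of the 6 genes, from RefSeq on GRCm38.p6, the assembly of mm10. The 3 shown are those of Acod1, Ass1 and Chil3, which were all higher with PRDX1, so that a reader can set their letters side by side. They were thus chosen by their result, and the matches of the remaining promoter, that of Retnla, are given below without its letters. Each is the 250 bases before the start site in the gene's own direction. Capitals mark matches to the motifs searched for on both strands.

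Acod1, chr14:103046762-103047011, plus strand: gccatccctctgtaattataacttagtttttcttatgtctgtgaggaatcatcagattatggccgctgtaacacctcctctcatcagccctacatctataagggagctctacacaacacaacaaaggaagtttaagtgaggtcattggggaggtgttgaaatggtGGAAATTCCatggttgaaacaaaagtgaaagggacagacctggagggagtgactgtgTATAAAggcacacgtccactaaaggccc
Ass1, chr2:31470020-31470269, plus strand: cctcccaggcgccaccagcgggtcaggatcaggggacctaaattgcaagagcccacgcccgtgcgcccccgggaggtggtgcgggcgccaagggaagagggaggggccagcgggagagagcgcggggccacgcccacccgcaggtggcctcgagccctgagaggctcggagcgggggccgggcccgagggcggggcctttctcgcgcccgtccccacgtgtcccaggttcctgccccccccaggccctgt
Chil3, chr3:106167565-106167814, minus strand: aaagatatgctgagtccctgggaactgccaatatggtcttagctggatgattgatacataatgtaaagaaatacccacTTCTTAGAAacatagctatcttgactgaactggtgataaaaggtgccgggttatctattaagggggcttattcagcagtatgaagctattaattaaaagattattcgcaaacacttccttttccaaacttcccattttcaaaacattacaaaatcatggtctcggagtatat

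The motifs were the NF-κB consensus of 10 letters, its short core GGANNNTCC, the STAT motif TTCNNNGAA, the STAT6 motif with its longer spacer, the interferon-stimulated response element, the AP-1 motif TGANTCA, the C/EBP motif TTGCNNAA, the cyclic AMP motif TGACGTCA and the TATA box TATAAA. The Acod1 window held GGAAATTCC, a match to the short NF-κB core, from 85 to 77 bases before the start site, and a TATA box from 28 to 23 bases before it. The short core was added to the search after this promoter had been read, and 7.27% of 32851 promoter windows of the same length hold it, while 12.4% hold the TATA letters. The Chil3 window held TTCTTAGAA, the STAT motif, which 7.02% of windows hold, and the Ass1 window held no match to any of the motifs. These are letters in a window, and no binding was measured in these files. The study assayed binding of the NF-κB protein p65 at the Acod1 promoter by chromatin immunoprecipitation, at a site that its primer list places upstream of this window.

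**Figure D1:**
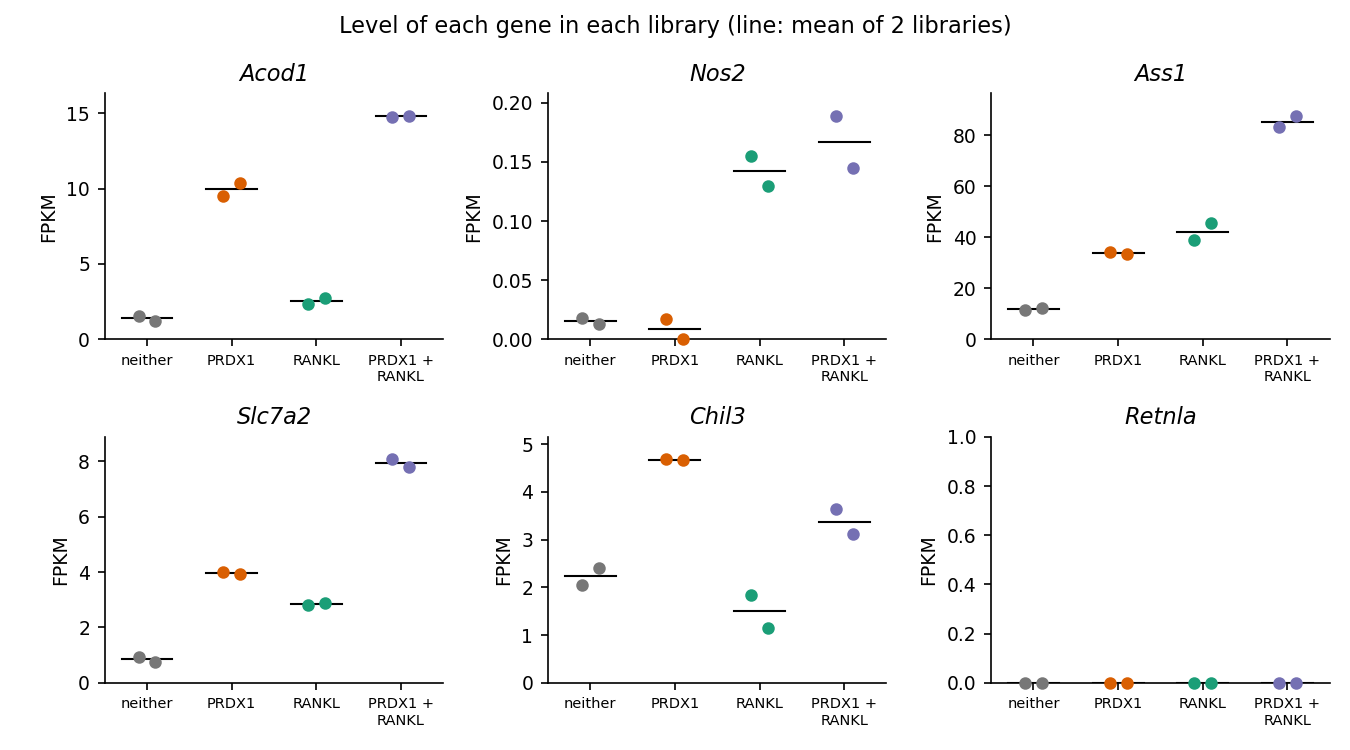
Level of each of the 6 genes in each library, in FPKM on linear axes that start at 0. Each point is 1 culture, the line is the mean of the 2 cultures of a group, and the panels have separate scales, from Ass1 at up to 87.7 FPKM to Retnla, listed at 0 in every library.

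PRDX1 raised Acod1 and the genes of arginine supply, Slc7a2 and Ass1, whether or not RANKL was present. Without RANKL, the 4 genes tested were all called higher and 0 lower, against 3.80% of 11700 genes called higher and 1.99% lower. With RANKL, the same 4 were called higher and 0 lower, against 6.03% and 4.17% of all genes. A gene was called at an adjusted p below 0.05 with a change of at least 1.5-fold on the log2(FPKM + 1) scale, by limma with Benjamini-Hochberg adjustment over all genes tested. That scale understates the change of genes at a low level. Between the 2 comparisons no library is shared, but their p-values rest on the same estimate of the spread, from a single model of all 4 groups. By voom on the recovered reads the 4 genes were all called higher in both, and in neither comparison was any of them lower at an unadjusted p under 0.05 by limma.

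**Figure D2:**
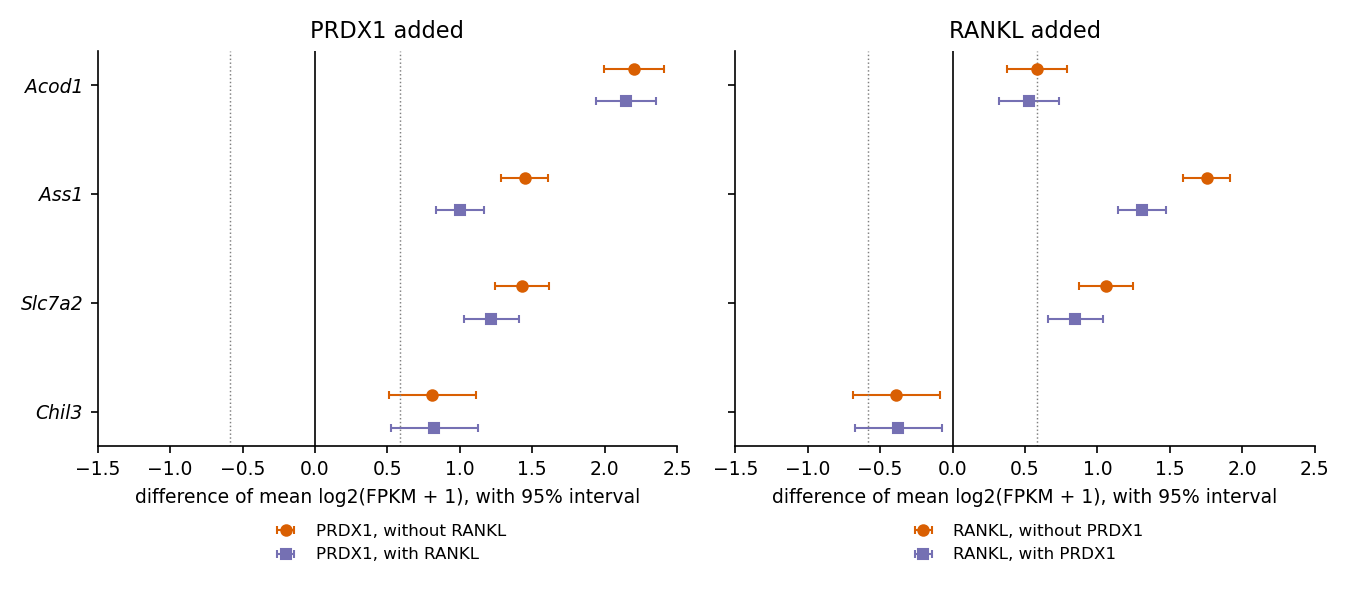
Differences of mean log2(FPKM + 1) for the 4 genes tested, with 95% intervals from limma (2 cultures a group). The left panel is the effect of PRDX1 and the right panel that of RANKL, dotted lines mark 1.5-fold, and the points of Acod1 in the left panel lie at 2.20 and 2.15.

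Acod1, the itaconate-producing enzyme, was higher with PRDX1 alone than with RANKL alone (1.62 on the log2 scale) and highest with both. In the 2 libraries with RANKL alone it stood at 2.37 and 2.76 FPKM (167 and 246 reads), and with both at 14.8 and 14.8 FPKM (1759 and 1605 reads). The groups did not overlap, and the difference was 2.15 on the log2 scale (SE 0.09, adjusted p = 9.07e-08). In untreated libraries Acod1 was listed at 1.53 and 1.23 FPKM, below each of the other 6 libraries, and with PRDX1 alone at 9.49 and 10.4 FPKM, a difference of 2.20 on the log2 scale (adjusted p = 2.11e-07). The order of the group means was untreated, RANKL alone, PRDX1 alone, both. RANKL itself moved Acod1 by 0.58 without PRDX1 (adjusted p = 3.59e-04) and by 0.53 with PRDX1 (adjusted p = 0.00141), both just under the fold required for a call. The value without PRDX1 passed that fold with a pseudocount of 0.1 (0.85), with voom on the recovered reads (0.83) and when untreated replicate 1 (0.67) or RANKL alone replicate 1 was left out (0.66), and the value with PRDX1 passed it when PRDX1 alone replicate 2 was left out (0.59). The effect of PRDX1 on Acod1 did not differ detectably with and without RANKL (difference -0.05, 95% interval -0.34 to 0.24, adjusted p = 0.828). Acod1 spans chr14:103047012-103056573 in mm10.

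The genes around itaconate were called in both directions. A list of 21 genes held enzymes of the citric acid cycle, the succinate dehydrogenase that itaconate inhibits, genes of its breakdown and the transcription factors it acts on. Of 19 tested, 1 was called higher with PRDX1 without RANKL (median -0.09, against -0.04 over all genes) and 2 higher and 5 lower with RANKL (median -0.45, against -0.06). The count without RANKL is near the share over all genes (3.80% higher and 1.99% lower), and with RANKL those shares were 6.03% and 4.17%. The gene that rose in both was Atf3, a stress transcription factor, at 0.91 without and 2.16 with RANKL. Sdhb, a subunit of succinate dehydrogenase, fell by 0.70 on the log2 scale with PRDX1 under RANKL (adjusted p = 2.37e-06), from 188 ± 2.36 FPKM to 115 ± 2.74 FPKM (SD, n = 2). Sdhb stood at 117 ± 5.31 FPKM in untreated cultures and at 112 ± 3.48 FPKM with PRDX1 alone. With RANKL alone 9 of the 19 genes were called higher and 1 lower (median 0.51, against 0.10 over all genes), where 11.8% of all genes were called higher and 9.96% lower, and the level of Sdhb with both was thus near that of cultures without RANKL. Nfkbiz, which encodes the inflammatory cofactor IκBζ that itaconate derivatives restrain, rose with PRDX1 under RANKL by 0.99 (adjusted p = 3.00e-05).

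Slc7a2, the inducible carrier of arginine and other cationic amino acids, rose with each ligand and most with both. It was listed at 0.924 and 0.764 FPKM in untreated libraries, 4.01 and 3.92 FPKM with PRDX1 alone, 2.82 and 2.87 FPKM with RANKL alone, and 8.08 and 7.80 FPKM with both. No 2 groups overlapped. PRDX1 raised it by 1.43 on the log2 scale without RANKL (SE 0.08, adjusted p = 1.70e-06) and by 1.22 with RANKL (SE 0.08, adjusted p = 2.27e-06). RANKL raised it by 1.06 without PRDX1 (adjusted p = 2.36e-06) and by 0.85 with PRDX1 (adjusted p = 3.60e-05). Under the alternative settings the effect of PRDX1 without RANKL ranged from 1.37 to 2.30, and that of RANKL without PRDX1 from 0.997 to 1.68. The constitutive arginine carrier Slc7a1 was at 13.8 ± 1.94 FPKM in untreated cultures and at 14.8 ± 1.06 with PRDX1 alone, 20.8 ± 0.765 with RANKL alone and 21.9 ± 1.41 with both (SD, n = 2), and Slc7a3, a related carrier, was at 0.141 FPKM or less in every library. Slc7a2 lies at chr8:40862367-40922070, and 635 bases of its exons lie on the other strand from exons of the non-coding Gm26584 in GENCODE M21, which is not a row of the table. Reads were counted without regard to strand, so that reads of the 2 genes cannot be told apart.

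Ass1, which joins citrulline and aspartate in the step before arginine is re-formed, was the most abundant of the 6 genes. It was listed at 11.4 and 12.2 FPKM in untreated libraries, 34.3 and 33.5 with PRDX1 alone, 39.1 and 45.4 with RANKL alone, and 83.1 and 87.7 with both. RANKL raised Ass1 by 1.75 without PRDX1 (SE 0.07, adjusted p = 2.08e-08) and by 1.31 with PRDX1 (SE 0.07, adjusted p = 7.38e-07), whereas PRDX1 raised it by 1.45 without RANKL (adjusted p = 6.29e-07) and by 1.002 with RANKL (adjusted p = 3.41e-06). PRDX1 alone and RANKL alone differed by -0.31 (adjusted p = 0.00411), under the fold required. The table also holds a row Gm5424 inside Ass1, at chr2:31470308-31520629, whose reads came to 97.4% to 98.0% of the Ass1 reads in each library. Ass1 itself spans chr2:31470270-31520670, so both rows count the reads of one place, and the Gm5424 row is not treated as a separate gene here. Asl, the enzyme of the next step, was at 20.1 ± 0.161 FPKM in untreated cultures, 16.8 ± 0.233 with PRDX1 alone, 19.5 ± 0.458 with RANKL alone and 17.4 ± 0.388 with both (SD, n = 2).

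Nos2, the inducible nitric oxide synthase, stayed at the edge of detection, and nearly all of its reads came from libraries with RANKL. It had 2 and 2 reads in untreated libraries, 2 and 0 with PRDX1 alone, 16 and 17 with RANKL alone, and 33 and 23 with both. No library without RANKL had more than 2 reads, and none with RANKL fewer than 16. Relative to library size, Nos2 was 9.53 times as high with RANKL as without it in the absence of PRDX1 (95% counting interval 3.39 to 37.0) and 21.2 times in its presence (5.60 to 179). PRDX1 under RANKL gave a ratio of 1.19 (0.761 to 1.89). The intervals cover counting error only, and the highest level was 0.189 FPKM. Nos2 lies at chr11:78925291-78960226. The other nitric oxide synthases, Nos1 and Nos3, reached at most 0.018 and 0.081 FPKM.

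**Figure D3:**
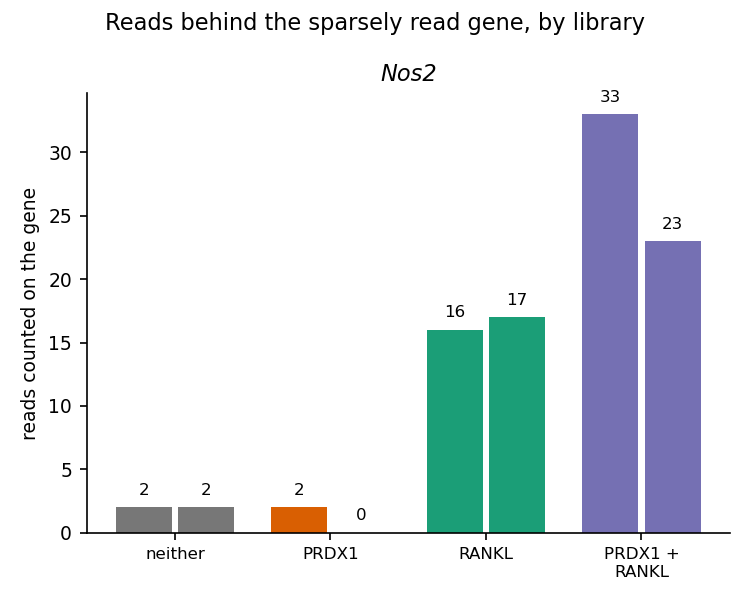
Reads counted on Nos2 in each of the 8 libraries, on a linear axis that starts at 0 and is not scaled for depth. Nos2 has 16 to 33 reads in the libraries with RANKL and at most 2 in those without.

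With PRDX1, the counts for the cofactor and the further arginine genes lay near the shares over all genes, which were 3.80% higher and 1.99% lower without RANKL and 6.03% and 4.17% with RANKL, and are no result about these lists. Of 6 tested genes of tetrahydrobiopterin, the cofactor of nitric oxide synthase, 0 were called with PRDX1 in either comparison by limma or by voom, while 2 had an unadjusted p under 0.05 without RANKL (1 of them lower) and 5 with RANKL (4 of them lower). The medians were -0.09 and -0.29, against -0.04 and -0.06 over all genes. The only gene of the 6 above 0 under RANKL was Gch1, the rate-limiting enzyme, at 16.5 ± 0.0233 FPKM with RANKL alone and 22.8 ± 0.930 with both (SD, n = 2), a difference of 0.44 under the fold required (adjusted p = 2.75e-04). Of 13 tested genes of arginine transport, the urea cycle and nitric oxide handling, 1 was called higher without RANKL and 2 with RANKL, and 0 lower by limma. At an unadjusted p under 0.05, 5 were lower without RANKL and 3 with RANKL, and voom called 1 lower without RANKL and 0 with RANKL. Without RANKL limma also called 1 lower with a pseudocount of 0.1, without untreated replicate 2 and without PRDX1 alone replicate 2, for a count of 2 in place of 1. Slc3a2, the heavy chain that many amino acid carriers pair with, rose by 0.69 without RANKL (adjusted p = 3.73e-05) and by 0.998 with RANKL (adjusted p = 1.45e-06). Slc7a7, the exporter of arginine that pairs with it, rose by 0.81 with PRDX1 under RANKL (adjusted p = 2.44e-06). Its mean went from 12.7 FPKM with RANKL alone to 23.0 with both, below the 43.9 of untreated cultures. RANKL without PRDX1 gave 1 gene higher and 4 lower in that list, against 11.8% and 9.96% of all genes. Among the latter, Gatm, which uses arginine to make the creatine precursor, fell by 1.76 on the log2 scale and Ddah2, which clears a natural inhibitor of nitric oxide synthase, by 1.65.

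Ornithine, which cells can make from arginine, feeds the synthesis of polyamines and proline. Of 18 tested genes of these pathways, PRDX1 gave 0 calls without RANKL by limma or voom (10 had an unadjusted p under 0.05, 8 of them lower) and 0 higher and 1 lower with RANKL (Prodh, which breaks down proline, fell by 0.64 on the log2 scale), where 11 had an unadjusted p under 0.05, 10 of them lower. Those counts of calls are near the shares over all genes, and the medians were -0.14 and -0.22, against -0.04 and -0.06 over all genes. RANKL without PRDX1 gave 7 higher and 1 lower (median 0.34, against 0.10 over all genes), where 11.8% of all genes were called higher and 9.96% lower. Odc1, the enzyme that turns ornithine into putrescine, was at 37.4 ± 1.42 FPKM in untreated cultures, 48.0 ± 1.07 with PRDX1 alone, 63.4 ± 1.08 with RANKL alone and 66.8 ± 1.31 with both (SD, n = 2). Both treatments against PRDX1 alone gave 3 higher and 1 lower, against 4.52% and 3.98% of all genes.

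**Figure D4:**
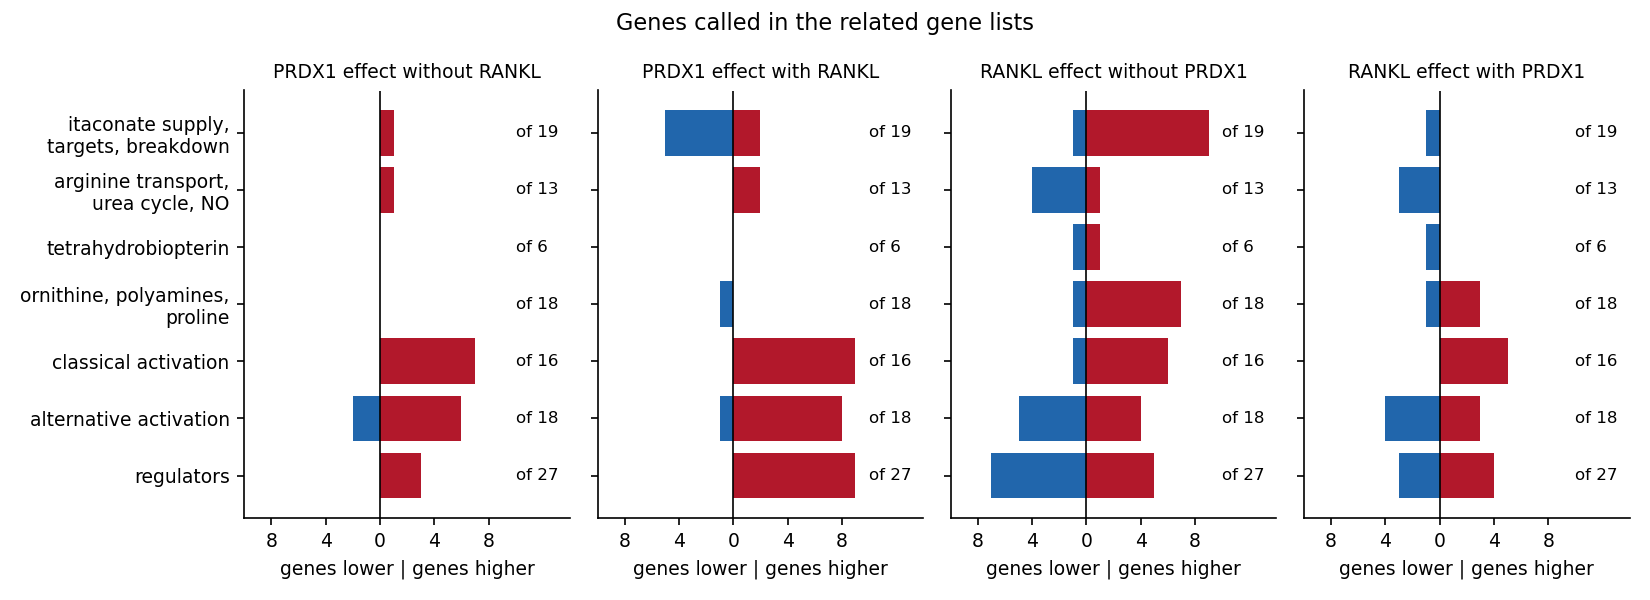
Number of genes called higher (right, red) and lower (left, blue) in each of 7 gene lists for the effects of PRDX1 and of RANKL, by limma at an adjusted p under 0.05 and a change of at least 1.5-fold. The number of genes tested stands beside each bar, and the list of ornithine, polyamines and proline has 0 calls with PRDX1 without RANKL and 8 with RANKL without PRDX1.

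The secreted markers of alternative activation were Chil3 and Retnla, and only Chil3 had reads. Chil3, a chitinase-like lectin, was listed at 2.06 and 2.42 FPKM in untreated libraries, 4.68 and 4.66 with PRDX1 alone, 1.85 and 1.14 with RANKL alone, and 3.65 and 3.11 with both. Every library with PRDX1 was above every library without it. PRDX1 raised Chil3 by 0.81 without RANKL (SE 0.13, adjusted p = 0.00151) and by 0.82 with RANKL (SE 0.13, adjusted p = 7.86e-04), and the difference between those effects was 0.01 (95% interval -0.41 to 0.44). The call without RANKL was lost when no filter on low values was used (adjusted p = 0.0580). RANKL moved Chil3 by -0.39 without PRDX1 (adjusted p = 0.0297) and by -0.38 with PRDX1 (adjusted p = 0.0485), both under the fold required. The value without PRDX1 moved to -0.18 without RANKL alone replicate 2, and it was called lower without RANKL alone replicate 1 (-0.60, adjusted p = 0.00288) and by voom on the recovered reads (-0.76, adjusted p = 0.0121). Chil4, its close relative that could share reads, had no more than 0.023 FPKM and was listed at 0 in 7 of 8 libraries.

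Chil3 is also abundant in neutrophils. The summed level of 10 neutrophil markers was 24.6 and 19.6 FPKM in untreated libraries, 53.7 and 49.6 with PRDX1 alone, 22.8 and 20.7 with RANKL alone and 48.7 and 44.7 with both. These markers thus moved with the same treatment as Chil3, and their part in its change was not tested. The sum came mostly from S100a8 (up to 18.0 FPKM), S100a9 (up to 21.5) and Mmp8 (up to 11.7). The other 7 ranged up to 2.64 FPKM (Cebpe), with Mpo at up to 1.74, Elane at up to 1.64 and Ngp at up to 1.33 FPKM. Of the 10 markers, 3 stayed under 1 FPKM in every library (Ly6g, Camp and Ltf), and Ly6g, the defining surface marker, and Camp were at 0 in at least 1 library. The eosinophil list of 8 genes summed to 1.26 and 1.15 FPKM in untreated libraries, 7.32 and 8.29 with PRDX1 alone, 3.35 and 3.24 with RANKL alone and 2.56 and 2.62 with both, so that it was higher with PRDX1 without RANKL and lower with PRDX1 under RANKL, and it consisted almost wholly of Ccr3, with 1 gene at 0 in all libraries. Chil3 lies at chr3:106147554-106167564.

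Retnla, the alternative marker Fizz1, had 0 reads in all 8 libraries. At these depths 3 reads would have been worth 0.121 to 0.206 FPKM, which is the limit that a count of 0 allows. Its relatives Retnlb and Retn were also listed at 0 throughout, while Retnlg reached 1.58 FPKM in 1 library with RANKL alone. Retnla lies at chr16:48842609-48844461.

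Wider lists of both activation states were called mostly in the same direction by PRDX1. Of 16 tested genes of classical activation, 7 were called higher without RANKL (median 0.44, against -0.04 over all genes) and 9 with RANKL (median 0.71, against -0.06), and 0 were lower in either, by limma or by voom (1 and 0 at an unadjusted p under 0.05). The chemokine Ccl5 rose by 3.80 without and 2.11 with RANKL, and the scavenger receptor Marco by 2.24 and 1.74. Tnf rose by 1.27 with RANKL (adjusted p = 1.89e-07). Of 18 tested genes of alternative activation, 6 were higher and 2 lower without RANKL (median 0.13) and 8 higher and 1 lower with RANKL (median 0.54). Over all genes 3.80% were called higher and 1.99% lower without RANKL, and 6.03% and 4.17% with RANKL. Clec7a, the receptor for fungal glucans, rose by 1.15 and 1.67, while the mannose receptor Mrc1, a common alternative marker, fell by 1.11 on the log2 scale without RANKL and rose by 0.84 with RANKL. Cd163, of the same list, fell by 1.37 on the log2 scale without RANKL (adjusted p = 5.85e-06 by limma), from a mean of 5.65 to 1.58 FPKM. It moved by 0.06 with RANKL, where its means were 0.286 FPKM with RANKL alone and 0.338 with both. Mrc1 was at 232 ± 23.0 FPKM in untreated cultures, 107 ± 3.94 with PRDX1 alone, 20.2 ± 2.51 with RANKL alone and 36.9 ± 0.559 with both (SD, n = 2). Ppargc1b, a coactivator of mitochondrial biogenesis, fell by 1.10 on the log2 scale with PRDX1 under RANKL. These lists were chosen with earlier results of these libraries known, so their counts are no independent evidence of a direction.

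Of 27 tested regulators of these pathways, PRDX1 raised 3 without RANKL and 9 with RANKL, with medians of 0.10 and 0.26, against -0.04 and -0.06 over all genes. The shares of all genes called higher were 3.80% and 6.03%. By limma and by voom 0 were called lower in either, and 3 and 2 were lower at an unadjusted p under 0.05. The interferon regulatory factor Irf8 rose by 1.55 with PRDX1 under RANKL and the Toll-like receptor coreceptor Cd14 by 1.14. Both stayed below untreated cultures. Irf8 had means of 49.0 FPKM in untreated cultures, 7.75 with RANKL alone and 24.7 with both. Cd14 had means of 461, 147 and 323 FPKM in the same order, and 404 with PRDX1 alone. Hif1a, the hypoxia factor, rose by 0.67 (adjusted p = 2.41e-05) with PRDX1 under RANKL. The 3 that rose without RANKL were Fos, a partner in AP-1, by 1.52 (13.8 and 13.8 FPKM in untreated libraries, 44.5 and 38.8 FPKM with PRDX1 alone), the oxysterol receptor Nr1h3 by 1.49 and Cebpb, a transcription factor of myeloid cells, by 0.68 (adjusted p = 4.24e-04). RANKL without PRDX1 gave 5 higher and 7 lower, against 11.8% and 9.96% of all genes, among them Fos at 3.06, and Irf8, which fell by 2.52 on the log2 scale.

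By limma, RANKL was called for fewer of the 4 tested genes than PRDX1, a difference in counts that was not tested. Without PRDX1, 2 were called higher (Ass1 and Slc7a2) and 0 lower (1 at an unadjusted p under 0.05, and 1 by voom), against 11.8% of all genes called higher and 9.96% lower. With PRDX1, the same 2 were higher and 0 lower (1 at an unadjusted p under 0.05, and 0 by voom), against 4.52% and 3.98% of all genes. The first of these counts became 4 (3 higher, 1 lower) with voom on the recovered reads, where Acod1 was called higher and Chil3 lower too. That is as many of the 4 genes as voom called with PRDX1. Without RANKL alone replicate 1, the change of Acod1 was 0.66 and that of Chil3 -0.60. Both treatments against untreated cultures gave 3 higher (Acod1, Ass1 and Slc7a2) and 0 lower, against 7.50% of all genes higher and 5.34% lower. In that comparison Ass1 rose by 2.76, Acod1 by 2.73 and Slc7a2 by 2.28, while Chil3 stood at 0.44 (adjusted p = 0.0248), under the fold required. PRDX1 alone against RANKL alone gave 2 higher (Acod1 at 1.62 and Chil3 at 1.20) and 0 lower, against 10.7% of all genes higher and 14.3% lower. In each of these last 2 comparisons voom called 3 higher and 0 lower. For PRDX1 alone against RANKL alone voom added Slc7a2, at 0.62 (adjusted p = 1.66e-06), where limma gave 0.37. By limma, 0 and 1 of the genes were lower at an unadjusted p under 0.05 in these 2 comparisons.

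**Figure D5:**
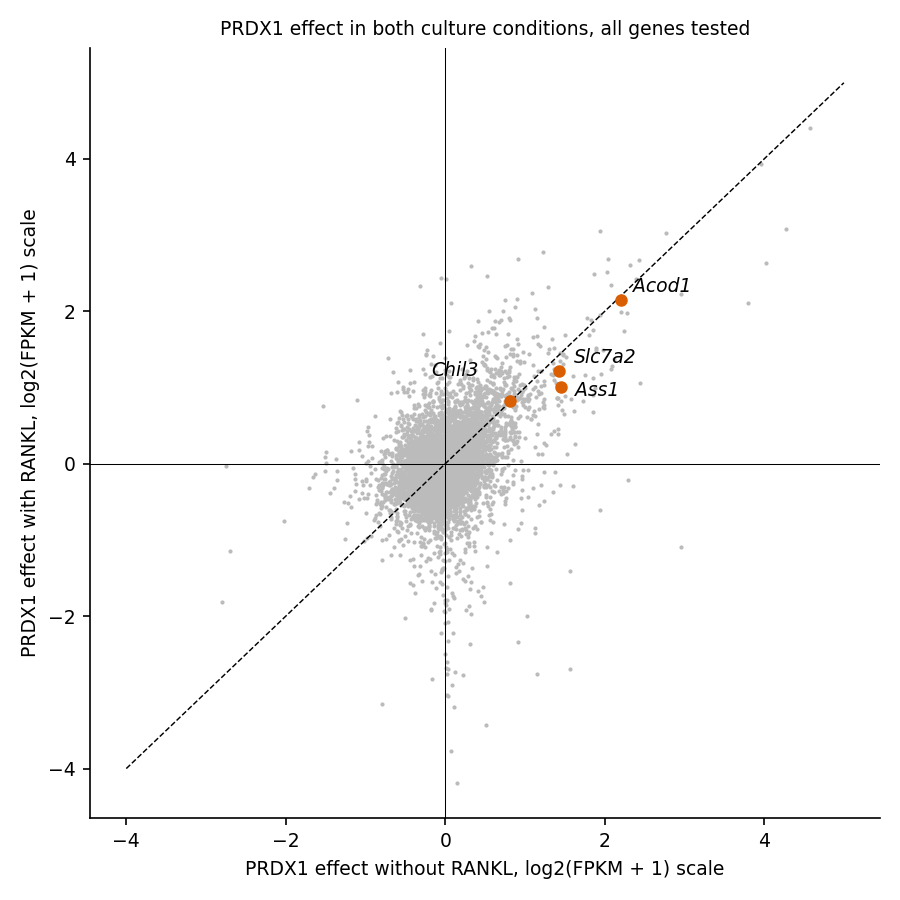
Effect of PRDX1 without RANKL (horizontal) and with RANKL (vertical) for 11700 genes tested, on the log2(FPKM + 1) scale, with the 4 genes tested here in orange and the line of equal effects dashed. Acod1 lies farthest from the origin of the 4, near the line at 2.20 and 2.15, and Ass1 lies below it.

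Whether the effect of PRDX1 depended on RANKL was tested as an interaction. Of the 4 genes, 0 were called by limma, against 8.85% of all genes called in either direction, while 1 had an unadjusted p under 0.05 and voom called 1. Ass1 had an adjusted p of 0.0116 at a difference of -0.45 (95% interval -0.68 to -0.22), under the fold required, and the adjusted p rose to 0.124 without a filter on low values. Slc7a2 gave -0.21 (adjusted p = 0.241), which became -0.66 (adjusted p = 0.0192) with a pseudocount of 0.1 and -0.76 (adjusted p = 3.97e-04) with voom on the recovered reads. On the linear scale the levels with both treatments lay between a sum and a product for Ass1, Slc7a2 and Acod1. Ass1 reached 85.4 ± 3.24 FPKM with both (SD, n = 2), above the 64.4 FPKM that adding the separate changes gives and below the 121 FPKM that multiplying the folds gives. Slc7a2 reached 7.94 ± 0.197 FPKM, against 5.96 for the sum and 13.3 for the product, and Acod1 14.8 ± 0.0495 FPKM, against 11.1 and 18.4. These sums and products are descriptions of group means, with no test.

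Across the 8 libraries the 4 tested genes were not all alike. Correlations of log2(FPKM + 1) were 0.96 for Ass1 with Slc7a2 and 0.93 for Acod1 with Slc7a2, but 0.21 for Ass1 with Chil3. The points share their group structure, so these values describe 4 groups of 2 more than 8 separate samples. Among 3840 other genes called in at least 1 pairwise comparison, the pattern most like Acod1 was that of Bst1, an ectoenzyme of the bone marrow stroma and myeloid cells (r = 0.996 over 8 libraries), at 7.58 ± 0.413, 20.2 ± 0.270, 9.15 ± 0.544 and 27.8 ± 1.08 FPKM in untreated, PRDX1 alone, RANKL alone and both (SD, n = 2). H2-Eb1 (0.994) and B2m (0.993) came next. Next to Slc7a2 stood H2-K2 (0.993), Hvcn1 (0.992) and H2-Q8 (0.992), and next to Ass1, after Gm5424, Tmem26 (0.995) and Ptk2 (0.993). For Chil3 they were Gla (0.984), Ifit2 (0.979) and Zup1 (0.976). Names such as H2-K2 and H2-Q8 belong to families of near-identical genes, and their reads may be split between copies.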

How the data were processed

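RNA of 8 cultures (4 groups of 2) was sequenced as 100 bp pairs. Per the labels and file headers, the authors aligned reads with HISAT2 and counted them with HOMER on RefSeq exons of mm10, without regard to strand, and deposited the values as FPKM. DESeq2 is also named in the submitters' processing notes, and no comparison of the authors was used. Library totals of 27284660 to 46171836 reads were fitted, as those at which FPKM multiplied by transcript length came nearest to whole numbers of reads. At those totals the product was whole (within 0.1) for 100% of the 5556 to 9650 genes checked per library. The genes checked were those at which rounding of the FPKM leaves a small error, and the share is no independent check of the totals. The floor was 3 reads, and counting intervals are exact at 95%.

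Values were set to log2(FPKM + 1) for the 11700 genes averaging 0.5 FPKM or more. A single limma model (version 3.58.1, R 4.3.3) held the 4 groups, with 4 residual degrees of freedom and a variance trend on intensity. Calls needed an adjusted p under 0.05 and 1.5-fold. With 2 against 2, an exact permutation test could not go below 0.333 and was not used. Recovered reads were also tested by limma's voom after scaling by the trimmed mean of M-values. The steps were tested on simulated data.

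The genes and the 7 lists were chosen with earlier results of these data known. Of 8 genes chosen, 2 are not reported here, nor are some genes of the lists by name. Named were the other 6 genes, up to 4 called genes of largest change per list and comparison, the 3 genes most correlated with each tested gene, and named relatives. Gch1, Asl, S100a8, S100a9, Mmp8, Ly6g, Camp, Ltf, Cebpe, Mpo, Elane, Ngp, Il7r, Cd3e, Cd3d, Ccr3, Gm5424 and Gm26584 are outside that rule and were named after their values were seen. Overlaps were read from GENCODE M21, and promoters from RefSeq. The labels give replicate numbers without any shared origin, and the command kept in the table's header names read directories with other numbers in 2 groups. No batch is given in the labels.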

Additional observations from a re-analysis of the deposited data

Results flagged for a closer look

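The change with PRDX1 in the presence of RANKL minus that in its absence had an adjusted p under 0.05, by limma's interaction test over 4 groups of 2 cultures with Benjamini-Hochberg adjustment over all genes tested, for Ass1 among the 6 genes, which did not reach 1.5-fold, and for the 16 genes of the lists given here, which did. They are among the genes of largest difference in each list, and other genes of the lists had an adjusted p under 0.05 too. All values are log2 differences of the effect with RANKL minus that without it. For Ass1 the difference was -0.45 (SE 0.10, adjusted p = 0.0116), since both of its effects were increases and the one without RANKL was larger. That difference is under the 1.5-fold required, so Ass1 is not among the genes called, and its adjusted p rose to 0.124 without a filter on low values and was also above 0.05 without replicate 1 of the group with both.

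Among genes of alternative activation, the differences were 1.95 for Mrc1, 1.42 for Cd163, 0.84 for Pparg and -1.04 for Ppargc1b. Mrc1 was lower with PRDX1 in both libraries without RANKL and higher in both with RANKL. Among genes of classical activation they were -1.69 for Ccl5 and 1.20 for Cxcl10, and around itaconate 1.25 for Atf3, -0.64 for Sdhb and -0.59 for Sdhd. Sdhb and Sdhd encode subunits of succinate dehydrogenase, and their values lie near the fold required, which Sdhd missed under several alternatives (down to -0.55 without RANKL alone replicate 1).

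Among arginine and proline genes the differences were 0.86 for Slc7a7, 0.67 for Ddah2 and -0.68 for Prodh, and Ddah2 lost its call without RANKL alone replicate 1 (0.55). Among regulators they were -1.40 for Fos, 1.33 for Cd14, 1.28 for Irf8 and -0.84 for Nr1h3. Without a filter on low values the adjusted p was above 0.05 also for Pparg, Ddah2, Cxcl10, Prodh and Nr1h3, at 0.0596 to 0.121.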

How the results depend on the processing

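The calls of Acod1, Ass1 and Slc7a2 with PRDX1 held in both comparisons under all alternatives that could be fitted. Counts of the 4 tested genes called stayed within 1.5 times, with these exceptions. With RANKL alone against untreated cultures the count of 2 became 4 with voom and 5 with voom on genes with at least 10 reads in 2 libraries, the latter added after seeing the data and including Nos2, which passes its limit only through the libraries with RANKL, and ranged from 2 to 4 with a replicate left out. For the interaction the count of 0 became 1 with a pseudocount of 0.1, 1 with voom and 1 with the added voom fit, and stayed at 0 with each replicate left out. For PRDX1 alone against RANKL alone the count of 2 became 4 with the added voom fit, again with Nos2 among them. Of the list counts with PRDX1 without RANKL, that of the itaconate list became 2 in place of 1 with both voom fits and that of the arginine list 2 in place of 1 under 5 of 17 alternatives, while with PRDX1 with RANKL every list count stayed within 1.5 times. The cause was not tested.

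Differences that turned were small and not called. The interaction of Chil3 became -0.013 under upper quartile scaling and ranged from -0.19 to 0.22 with a replicate left out, and that of Acod1 ranged from -0.14 to 0.039 with a replicate left out. Over all genes, the added fit called 1167 genes against 678 with PRDX1 without RANKL, 1939 against 1193 with PRDX1 with RANKL, 1615 against 995 with RANKL with PRDX1 and 2386 against 1502 with both.

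Replicate numbers are shared between groups in the labels, but same-numbered libraries did not deviate together (correlations 0.008 to 0.096, none over 0.1), so they were not treated as pairs. With the replicate block PRDX1 without RANKL called 676 genes in place of 678, and no call of the tested genes changed, with 4 of them higher with PRDX1 without RANKL. Depth limits Nos2 and Retnla, which had at most 33 and 0 reads.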

Other observations

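Some marker sums of further cell types were also higher with PRDX1. The T cell list, of which 5 genes were in the table, summed to 23.3 and 25.6 FPKM in untreated libraries, 55.3 and 50.7 with PRDX1 alone, 7.02 and 6.19 with RANKL alone and 32.4 and 31.9 with both. Nearly all of that sum was Il7r, the interleukin-7 receptor (5.43 to 54.3 FPKM), while Cd3e was at 0 in every library and Cd3d reached 0.090 FPKM. The dendritic cell list of 7 genes summed to 7.45 and 7.11 FPKM in untreated libraries, 15.9 and 16.8 with PRDX1 alone, 9.87 and 10.9 with RANKL alone and 18.5 and 20.04 with both. The stromal list of 6 genes summed to 7.74 and 10.5, 16.8 and 17.2, 7.57 and 9.36, and 15.8 and 19.4 FPKM in the same order. Every library with PRDX1 was above every library without it in these 3 lists, as for Chil3, and in the B cell list, which stayed between 0.365 and 1.33 FPKM. The endothelial list summed to 1.82 to 5.55 FPKM, with libraries of RANKL alone above those of PRDX1 alone. The mast cell and natural killer cell lists stayed at or below 0.054 FPKM in every library. No part of these lists in the results was tested.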
